A study of Mus musculus with 6 samples.

Results

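The genes described here encode nuclear subunits of respiratory complexes I, II, III and V in mouse choroid plexus (ChP). They were taken from the table of gene levels by symbol alone. Symbols beginning with Ndufa, Ndufb, Ndufc, Ndufs or Ndufv and a number gave 37 genes of complex I, Sdha to Sdhd gave the 4 genes of complex II, Cyc1 and the symbols beginning with Uqcr gave 9 genes of complex III, and the symbols beginning with Atp5 gave 17 genes of complex V. Together these are 67 of the 24354 genes in the table. The symbol rule also takes a few genes whose products are placed elsewhere. Ndufa4 is now assigned to cytochrome c oxidase, and Atp5sl, annotated as Dmac2, and Atp5s are not stable subunits of the ATP synthase.

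Complex I passes electrons from NADH, and complex II from succinate, to ubiquinone in the inner mitochondrial membrane. Complex III hands them on to cytochrome c, complexes I and III pump protons on the way, and complex V, the ATP synthase, lets the protons flow back to make ATP. The ChP epithelium secretes cerebrospinal fluid by ATP-driven ion transport and is known for its many mitochondria.

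Levels were measured by TRAP-seq, in which ribosomes carrying a tagged protein are pulled down and the mRNA bound to them is sequenced. All 6 samples carried the same 2 transgenes, FoxJ1:cre and the bacTRAP allele EGFP:L10a, so the tag was switched on in cells with a history of Foxj1 promoter activity, which in ChP are epithelial cells. There were 3 adult samples, aged 60 days by the labels, and 3 samples at embryonic day 16.5 (E16.5), with no treatment at either age. The methods describe each sample as a pool of several mice or litters, and the series text speaks of mice per age, so p-values here measure the spread between these samples only. FPKM, which scales the fragments of a gene by its transcript length and the sample's mapped reads, was compared on the scale log2(FPKM + 1) with limma across the 11601 genes with a mean FPKM above 1. Every change below is adult minus E16.5 on that scale.

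The libraries differed in depth and content. Read totals are not given with FPKM. From the FPKM that one read was worth, the deepest library was 5.17 times as deep as the shallowest, adult replicate 3, and all 3 E16.5 libraries were deeper than all 3 adult libraries. The adult samples had 7599 to 11340 genes above 0 and the E16.5 samples 12761 to 13077. The microRNA gene Mir6236 took 32.7% to 51.7% of the summed FPKM in adults and 13.3% to 15% at E16.5. Among 9 epithelial markers, 8 were above 0 in all 6 samples, and Ttr was listed at 0 FPKM throughout E16.5. The 9 markers did not move together, with 3 called in each direction. Ttr was among the 3 called higher in adults. It passed the filter only through its adult values, and an exact 0 can be a failed estimate, so its call carries no weight. Among those higher in adults, Kl and Enpp2 had changes of 6.06 and 5.93 (limma adjusted p = 0.000166 and 4.48e-05). Foxj1, whose promoter drives Cre, was at 37.9, 45.8 and 62.4 FPKM in adults and at 208, 198 and 154 FPKM at E16.5 (change -1.93, limma adjusted p = 0.0127). Of 6 lists of markers of other cells or of cycling, the sums of 4 were higher in every E16.5 sample than in every adult sample. Among single genes tested, 31% had every adult sample below every E16.5 sample. The summed FPKM of 5 red blood cell markers was 0 to 6.49 in adults and 54.1 to 324 at E16.5, that of 6 neuronal and progenitor markers 0 to 4.6 and 16.4 to 121, that of 5 cell cycle markers 0 to 16.5 and 17.2 to 42, and that of 7 mesenchymal markers 13.3 to 22 and 58.6 to 69.4. The sums of 6 endothelial markers (0.489 to 19 and 12.3 to 40.4) and 6 macrophage markers (0.0695 to 6.82 and 0.584 to 8.42) overlapped between the ages. In the adult samples 4 of the 5 red blood cell markers, 3 of the 6 neuronal markers, 4 of the 5 cell cycle markers and 1 of the 7 mesenchymal markers were at 0 in every library. Zeros were more frequent in adults over all genes tested too, at 10.3% to 36.4% of them per adult library and 3.68% to 4.02% per E16.5 library. The part of depth, of Mir6236 and of other cells in the changes below was not tested. In such bulk samples, fewer cells of a type and less RNA per cell cannot be told apart.

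Promoters of 53 of the 67 genes were matched in RefSeq (GRCm38.p6), each covering 250 bases before and 50 bases after the gene start. They were searched on both strands for letters bound by regulators of respiratory genes. The NRF1 core GCGCANGCG, with N standing for C or T, was found in 12 of the 53 (22.6%, against 8.62% of the promoters of genes tested), the ETS letters CCGGAAG of the GABP family in 13 (24.5% against 20.64%), the YY1 letters AAGATGGC in 9 (17% against 5.54%), and the estrogen-related receptor (ERR) letters TCAAGGTCA in 2 (3.8% against 0.32%). These matches describe letters, not binding. The 6 promoters below are printed as examples from genes called and not called, with matched letters in capitals on either strand. Ndufb4 (chr16:37654319-37654618, minus strand), listed at 0 in every adult sample, holds the NRF1 core. Ndufb7 (chr8:83566508-83566807, plus strand) holds the ETS letters and Ndufs4 (chr13:114388045-114388344, minus strand) the YY1 letters, and both passed the test between the ages. Among called genes whose promoters are not printed, Atp5o holds the NRF1 core, while Ndufa5, Ndufb2, Ndufv2 and Uqcr10 hold none of these letters. Atp5g3 (chr2:73911277-73911576, minus strand), the c subunit gene with the highest listed FPKM, holds the ERR letters. Sdhd (chr9:50603800-50604099, minus strand) holds the NRF1, ETS and ERR letters, and Sdha (chr13:74350191-74350490, minus strand), which had the highest change, holds none of the 4.
Ndufb4: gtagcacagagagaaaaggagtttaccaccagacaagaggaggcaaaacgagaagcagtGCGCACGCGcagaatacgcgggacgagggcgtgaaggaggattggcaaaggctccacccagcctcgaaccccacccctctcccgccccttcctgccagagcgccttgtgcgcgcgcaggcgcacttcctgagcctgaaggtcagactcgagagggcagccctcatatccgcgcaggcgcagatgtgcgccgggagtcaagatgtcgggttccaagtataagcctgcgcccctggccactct
Ndufb7: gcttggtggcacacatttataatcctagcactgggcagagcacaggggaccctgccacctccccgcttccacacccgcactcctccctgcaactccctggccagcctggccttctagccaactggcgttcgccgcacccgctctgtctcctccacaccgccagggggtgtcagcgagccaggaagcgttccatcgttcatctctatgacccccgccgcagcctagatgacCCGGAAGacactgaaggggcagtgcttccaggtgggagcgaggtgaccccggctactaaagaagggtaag
Ndufs4: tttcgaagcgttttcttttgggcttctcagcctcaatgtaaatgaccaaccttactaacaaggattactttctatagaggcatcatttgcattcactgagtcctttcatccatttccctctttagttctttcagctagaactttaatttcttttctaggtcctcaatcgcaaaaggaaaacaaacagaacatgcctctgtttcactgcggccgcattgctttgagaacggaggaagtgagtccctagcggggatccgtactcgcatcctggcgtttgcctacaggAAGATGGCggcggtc
Atp5g3: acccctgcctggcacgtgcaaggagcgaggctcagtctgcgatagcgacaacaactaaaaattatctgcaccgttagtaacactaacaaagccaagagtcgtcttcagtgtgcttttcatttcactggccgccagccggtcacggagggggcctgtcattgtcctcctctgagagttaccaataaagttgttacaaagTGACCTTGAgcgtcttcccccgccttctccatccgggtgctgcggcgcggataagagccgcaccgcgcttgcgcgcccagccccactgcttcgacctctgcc
Sdhd: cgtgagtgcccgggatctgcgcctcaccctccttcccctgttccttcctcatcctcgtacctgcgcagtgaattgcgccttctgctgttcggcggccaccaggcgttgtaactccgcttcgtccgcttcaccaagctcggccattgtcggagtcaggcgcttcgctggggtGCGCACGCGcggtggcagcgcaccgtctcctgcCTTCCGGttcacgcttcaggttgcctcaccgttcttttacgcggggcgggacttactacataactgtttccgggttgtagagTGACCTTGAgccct
Sdha: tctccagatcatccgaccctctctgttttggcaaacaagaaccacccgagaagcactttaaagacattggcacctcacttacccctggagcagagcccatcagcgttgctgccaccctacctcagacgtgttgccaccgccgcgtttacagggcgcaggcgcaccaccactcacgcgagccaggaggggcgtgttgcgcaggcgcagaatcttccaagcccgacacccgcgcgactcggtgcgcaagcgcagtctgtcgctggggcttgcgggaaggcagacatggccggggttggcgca

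In the genes of these complexes, as in the table as a whole, negative changes outnumbered positive ones, with 56 of 64 genes negative against 72.8% of all genes tested. Of the 67 genes, 64 had a mean FPKM above 1 and were tested. Of these, 10 (15.6%) were called higher at E16.5 at an adjusted p under 0.05, where 8.83% of all genes tested were. The 64 genes have short transcripts (median 868 bases against 2908 over all genes tested). Of other genes with transcripts under 750 bases, 17.5% were called higher at E16.5, and shares by length are given below. The excess over all genes depended on the processing. The share of these genes was above the share of all genes in 10 of 17 other settings and below it in 7, which were a pseudocount of 0.01, no filter, median-ratio scaling, limma without trend and leaving out each E16.5 replicate. None was called higher in adult ChP by limma, where 2.12% of all genes were, and 2 had an unadjusted p under 0.05 in that direction against 31 in the other. Over all genes tested, 5.34% and 25.9% did. The median change was -1.35 over the 64 genes and -0.86 over all genes tested, a difference of -0.49, close to the SD of 0.45 between replicates. Without adult replicate 1 the difference was -0.08. In 32 genes every adult sample lay below every E16.5 sample (50% against 31% of all genes), and in 2 genes every adult sample lay above (against 7.39% of all genes). The 10 called genes were Ndufa5, Ndufb2, Ndufb4, Ndufb7, Ndufs4 and Ndufv2 of complex I, Uqcr10 of complex III, and Atp5g3, Atp5o and Atp5s of complex V. This count fell without any E16.5 library. Without E16.5 replicate 1, 2 or 3 it was 1 each time, namely Ndufb4, and without adult replicate 1, 2 or 3 it was 5, 17 and 15. Those last 3 counts are 7.81%, 26.6% and 23.4% of the genes tested here, against 4.17%, 14.7% and 10.7% of all genes tested. The count also moved with the scaling, from 3 under median-ratio scaling to 43 with samples set to the same sum of FPKM. Of all genes tested, 5.68% and 27.9% were called there.

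Summed over the 67 genes, FPKM was 6855, 15910 and 15333 in adult replicates 1 to 3 and 27147, 26482 and 21852 in E16.5 replicates 1 to 3. Each adult sum was below each E16.5 sum, and adult replicate 1 was the lowest. With Mir6236 left out of the total, the genes took 1.32%, 2.87% and 3.06% of the summed FPKM in adults and 5.36%, 5.1% and 5.6% at E16.5. The adult samples also differed more among themselves. The median SD of log2(FPKM + 1) was 1.04 between adult samples and 0.33 between E16.5 samples, and 57 of the 64 genes had the larger SD in adults. Adult replicate 1 was the lowest adult sample for 38 genes and adult replicate 3 for 21. In adult replicate 3, 8 genes were under 10% of their value in both other adult samples, namely Ndufa7, Ndufb5, Ndufb6, Ndufb9, Ndufc1, Ndufc2, Atp5g1 and Atp5s, although 24 others had their highest adult value there.

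**Figure D1:**
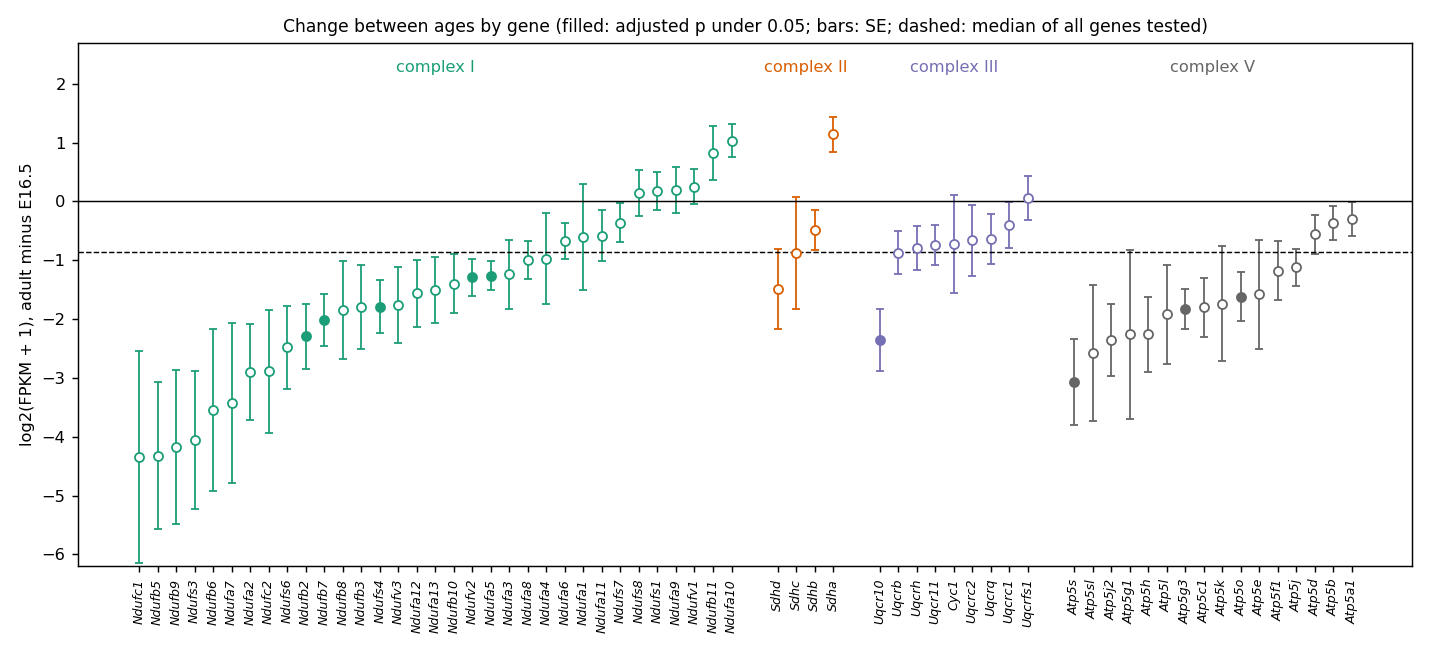
Change in log2(FPKM + 1), adult minus E16.5, for the tested genes of the 4 complexes reported here, with its SE; filled points passed an adjusted p of 0.05 and the dashed line is the median of all genes tested, -0.86. Ndufb4 is left out because every adult sample was listed at 0. Complex V lies below 0 throughout, from -3.07 to -0.30, and Sdha at 1.14 is the highest point.

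The nuclear genes of complex I, counting Ndufa4, had a median change of -1.50 over 35 genes tested. Of these, 29 were negative, where 72.8% of all genes tested were. Those called higher at E16.5 were 6 (17.1%, against 8.83% of all genes tested). Relative to all genes the median was -0.65, and -0.27 without adult replicate 1. The complex has an arm in the matrix that oxidizes NADH and an arm in the membrane that pumps protons. Its 7 catalytic genes in the table, which have bacterial counterparts, had a median of -0.36, and its 27 tested accessory genes a median of -1.79. Their median transcript lengths were 1623 and 704 bases. This grouping was made after the values had been seen, and neither it nor the part of length was tested.

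Among the catalytic genes, Ndufv1, which binds NADH and its flavin, was at 89.2, 147 and 148 FPKM in adults and at 95.9, 116 and 103 FPKM at E16.5. The ages overlapped (change 0.25 ± 0.30 SE, limma adjusted p = 0.581). Ndufs1, the largest iron-sulfur subunit, was at 51.3, 74.7 and 50.9 FPKM in adults and at 40.2, 57.9 and 57.5 FPKM at E16.5, again with overlap. Ndufs7 and Ndufs8, which carry iron-sulfur clusters leading to the ubiquinone site, had changes of -0.36 and 0.14, neither past the threshold. Ndufv2, an iron-sulfur subunit beside Ndufv1, did pass. It was at 62.6, 107 and 113 FPKM in adults and at 215, 277 and 188 FPKM at E16.5, so every adult sample was lower (change -1.29 ± 0.32 SE, limma adjusted p = 0.0451). Ndufs3, a subunit of the ubiquinone-binding module, was at 0, 22.5 and 0.443 FPKM in adults and at 56, 86.9 and 29.9 FPKM at E16.5. No sample overlapped, and the spread between adults was wide (change -4.05 ± 1.17 SE, limma adjusted p = 0.0657). Of the 50-base stretches in its transcript, 39.7% also occur in other annotated genes, mostly pseudogenes.

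Of the accessory genes, Ndufb4 of the membrane arm was listed at 0 FPKM in all 3 adults and at 42.6, 28.7 and 17.6 FPKM at E16.5 (limma adjusted p = 0.00729). An exact 0 can be a failed estimate, so no fold is given. The gene passed the filter on mean FPKM only through its E16.5 values, so its call, though among the 10, carries no weight of its own. Pseudogenes hold 37.0% of the 50-base stretches of its transcript. Ndufa5, which sits on the matrix arm, was at 148, 120 and 168 FPKM in adults and at 346, 308 and 387 FPKM at E16.5. Both ages were tight here, and the change was -1.26 ± 0.25 SE (limma adjusted p = 0.0243). Ndufs4, needed to hold the NADH-oxidizing module in place, was at 109, 64.7 and 33.1 FPKM in adults and at 250, 244 and 164 FPKM at E16.5, with a change of -1.79 ± 0.45 SE (limma adjusted p = 0.0456). The membrane-arm genes Ndufb2 and Ndufb7 were lower in every adult sample too. Ndufb2 was at 44.6, 91.5 and 236 FPKM in adults and at 544, 469 and 454 FPKM at E16.5 (change -2.29 ± 0.55 SE, limma adjusted p = 0.0406). Ndufb7 was at 108, 306 and 101 FPKM in adults and at 739, 602 and 504 FPKM at E16.5 (change -2.02 ± 0.44 SE, limma adjusted p = 0.0323). Of the stretches of Ndufb2, 33.5% are shared with other genes, while Ndufa5, Ndufb7, Ndufs4 and Ndufv2 share none.

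The complex I genes with the highest mean FPKM over all 6 samples were Ndufa4, Ndufv3 and Ndufa3. Ndufa4 was at 92, 639 and 925 FPKM in adults and at 885, 629 and 742 FPKM at E16.5. Adult replicates 2 and 3 lay in or above the E16.5 range and adult replicate 1 far below it (change -0.97 ± 0.78 SE, limma adjusted p = 0.416), and without that sample the change was 0.05. Its paralog Ndufa4l2, known as a hypoxia-induced gene, was at 0 FPKM in 5 samples and at 0.996 FPKM in E16.5 replicate 2, and was not tested. Ndufv3, a small subunit of the NADH-oxidizing module, was at 190, 742 and 107 FPKM in adults and at 737, 937 and 865 FPKM at E16.5, and the ages overlapped through adult replicate 2. Ndufa3, of the membrane arm, was at 237, 538 and 145 FPKM in adults and at 696, 1090 and 327 FPKM at E16.5, also with overlap.

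A few accessory genes ran the other way. Ndufa10, a membrane-arm subunit related to nucleoside kinases, was at 105, 133 and 125 FPKM in adults and at 71.6, 57 and 49.1 FPKM at E16.5. Every adult sample was higher, with a change of 1.03 ± 0.28 SE that missed the threshold (limma adjusted p = 0.0584). Ndufb11, of the membrane arm, had a change of 0.82 with overlap between the ages. At the low end, Ndufc1 was at 120, 203 and 0 FPKM in adults and at 547, 867 and 433 FPKM at E16.5, and Ndufb5 at 8.34, 46 and 0 FPKM in adults and at 251, 92.6 and 148 FPKM at E16.5. The ages did not overlap for either gene, but an SE of 1.80 and of 1.25 left both short of the threshold (limma adjusted p = 0.148 and 0.065). Ndufs5 was listed below 0.01 FPKM in every sample, from 0.000272 to 0.00146 FPKM, and was not tested. Its transcript has 41.2% of its 50-base stretches in common with the pseudogene BC002163, which was at 6.02, 0 and 1.1 FPKM in adults and at 15.9, 46.4 and 27 FPKM at E16.5.

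**Figure D2:**
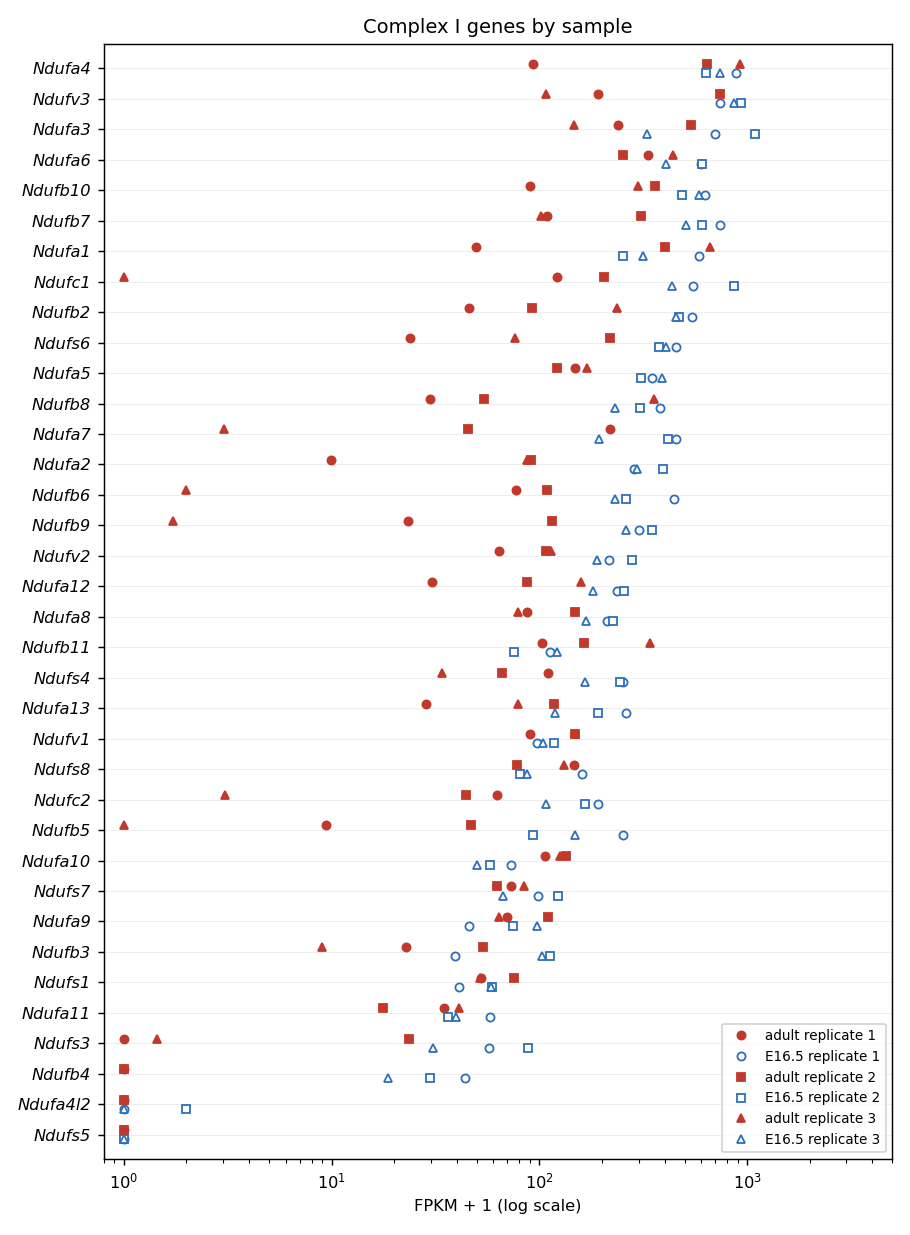
FPKM + 1 of the complex I genes reported here on a log axis, ordered by mean FPKM, with filled red symbols for the 3 adult and open blue symbols for the 3 E16.5 samples. The adult symbols spread more widely than the E16.5 symbols in most genes, and Ndufb4 has all adults at 0 FPKM.

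Complex II, which also serves the citrate cycle, had a median change of -0.68 over its 4 genes, and none was called. Sdha, the flavoprotein that oxidizes succinate, was at 164, 260 and 309 FPKM in adults and at 101, 113 and 108 FPKM at E16.5. Every adult sample was higher, and its change of 1.14 ± 0.30 SE was the highest of the 64 genes but missed the threshold (limma adjusted p = 0.0513). Sdhb, the iron-sulfur subunit, was at 49, 52.2 and 77.3 FPKM in adults and at 91.2, 101 and 60.3 FPKM at E16.5, with overlap. The membrane anchors Sdhc and Sdhd differed in their spread. Sdhc was at 15.7, 131 and 325 FPKM in adults and at 157, 180 and 153 FPKM at E16.5, so that adults lay on both sides of the E16.5 range. Sdhd was at 71, 68.6 and 11.5 FPKM in adults and at 139, 124 and 79.2 FPKM at E16.5, without overlap (change -1.49 ± 0.68 SE, limma adjusted p = 0.181).

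Complex III had a median change of -0.72 over 9 genes, and 1 gene was called higher at E16.5 (11.1%, against 8.83% of all genes tested). Relative to all genes the median was 0.14, which became 0.47, 0.34 and -0.40 on leaving out adult replicate 1, 2 or 3 and 0.04 on leaving out E16.5 replicate 3, against an SD between replicates of 0.58. Uqcr10, a small subunit beside cytochrome c1, was at 175, 313 and 61.9 FPKM in adults and at 827, 779 and 735 FPKM at E16.5. Every adult sample was lower (change -2.36 ± 0.53 SE, limma adjusted p = 0.0351), and its transcript shares no 50-base stretch with another gene. The redox subunits did not pass. Cyc1, which is cytochrome c1, was at 11.8, 40.7 and 158 FPKM in adults and at 61.3, 58.8 and 100 FPKM at E16.5. Uqcrfs1, the Rieske iron-sulfur protein, was at 109, 113 and 233 FPKM in adults and at 172, 137 and 108 FPKM at E16.5. Both overlapped between the ages, with changes of -0.72 and 0.06, and that of Uqcrfs1 turned negative under some scalings. The core proteins Uqcrc1 and Uqcrc2 had changes of -0.40 and -0.66.

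The complex III genes with the highest mean FPKM over all 6 samples were Uqcr11, Uqcrh and Uqcr10. In adults alone, Uqcr10 (mean 183 FPKM) was below Uqcrq (348 FPKM) and Uqcrb (201 FPKM). Uqcr11, a small subunit, was at 535, 757 and 1236 FPKM in adults and at 1424, 1525 and 1085 FPKM at E16.5. Uqcrh, the hinge protein near the cytochrome c site, was at 334, 862 and 763 FPKM in adults and at 1226, 1079 and 851 FPKM at E16.5. The highest adult value was inside the E16.5 range for both genes, and neither passed (limma adjusted p = 0.178 and 0.204).

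Complex V had the lowest median change of the 4 complexes, -1.77 over 16 genes tested, all of them negative. The lowest changes among the 16, -3.07 and -2.58, belong to Atp5s and Atp5sl, which are not stable subunits. Every adult sample lay below every E16.5 sample in 11 of the 16 (68.8%, against 31% of all genes tested). Of the 16, 3 were called higher at E16.5 (18.8%, against 8.83%). The ATP synthase has a catalytic head (F1), a stalk that holds it still and a membrane part with a ring of c subunits. The 5 genes of the head had a median of -0.56, 4 genes of the stalk -1.40 and 3 other membrane genes -1.92, a grouping made after the values had been seen and not tested. Without adult replicate 1, the median of complex V relative to all genes went from -0.92 to -0.30.

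In the head, Atp5b, the catalytic beta subunit, was at 366, 679 and 643 FPKM in adults and at 661, 716 and 712 FPKM at E16.5. Atp5a1, the alpha subunit, was at 338, 615 and 349 FPKM in adults and at 451, 526 and 567 FPKM at E16.5. Both overlapped, with changes of -0.36 and -0.30, and that of Atp5a1 was positive under median-ratio scaling and quantile normalization. Atp5c1, the gamma subunit that turns in the head, was at 50.4, 213 and 150 FPKM in adults and at 462, 366 and 416 FPKM at E16.5. It was lower in every adult sample and missed the threshold (change -1.80 ± 0.50 SE, limma adjusted p = 0.0594). Atp5e, the epsilon subunit, was at 50.9, 728 and 664 FPKM in adults and at 1007, 775 and 862 FPKM at E16.5, also without overlap, with adult replicate 1 far below the other adults (change -1.58 ± 0.93 SE, limma adjusted p = 0.278).

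In the stalk, Atp5o, the subunit that confers oligomycin sensitivity and joins stalk and head, was at 141, 355 and 133 FPKM in adults and at 732, 613 and 433 FPKM at E16.5. It was called with little margin (change -1.62 ± 0.42 SE, limma adjusted p = 0.0499). Other genes hold 34.0% of the 50-base stretches of its transcript. Just outside lay Atp5j2, the membrane subunit f, at 81.2, 383 and 69.3 FPKM in adults and at 709, 544 and 768 FPKM at E16.5. Its change was -2.36 ± 0.61 SE, also without overlap between the ages. Atp5j, coupling factor F6, was at 453, 853 and 821 FPKM in adults and at 1484, 1785 and 1226 FPKM at E16.5, and missed the threshold (change -1.12 ± 0.31 SE, limma adjusted p = 0.0591). Atp5k, the membrane subunit e, had the highest mean FPKM of all 67 genes. It was at 129, 1762 and 2280 FPKM in adults and at 3075, 2653 and 2373 FPKM at E16.5. Adult replicate 1 stood far below the other adults, and the change was -1.74 ± 0.98 SE (limma adjusted p = 0.259).

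The c subunits of the ring are encoded by paralogs whose mature proteins are the same. Atp5g3 was at 110, 227 and 233 FPKM in adults and at 745, 641 and 549 FPKM at E16.5. Every adult sample was lower, with a change of -1.83 ± 0.34 SE (limma adjusted p = 0.0218), and its transcript shares no 50-base stretch with another gene. Atp5g1 was at 25.9, 69 and 0 FPKM in adults and at 102, 63.5 and 29.8 FPKM at E16.5, with overlap, and Atp5g2 was listed at 0 FPKM in all 6 samples and was not tested. Shared stretches make up 66.0% of Atp5g1 and 87.4% of Atp5g2, so that their levels, and the shares given next, are uncertain. Of the summed FPKM of the c subunit genes, Atp5g3 held 80.9%, 76.7% and 100% in adults and 87.9%, 91% and 94.9% at E16.5. Its mean share was 85.9% ± 12.4 (SD, n = 3) in adults and 91.3% ± 3.48 (SD, n = 3) at E16.5, a difference within the spread of the adults (two-sided exact permutation p = 0.5, adjusted over 3 shares 0.75).

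Both genes of complex V that are not stable subunits were low. Atp5s, known as coupling factor B, was at 3.19, 1.67 and 0 FPKM in adults and at 22.3, 19.8 and 12.6 FPKM at E16.5, and was called (change -3.07 ± 0.73 SE, limma adjusted p = 0.0398). Atp5sl was at 0, 16.3 and 0 FPKM in adults and at 20.9, 9.32 and 15.5 FPKM at E16.5, with overlap through adult replicate 2.

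**Figure D3:**
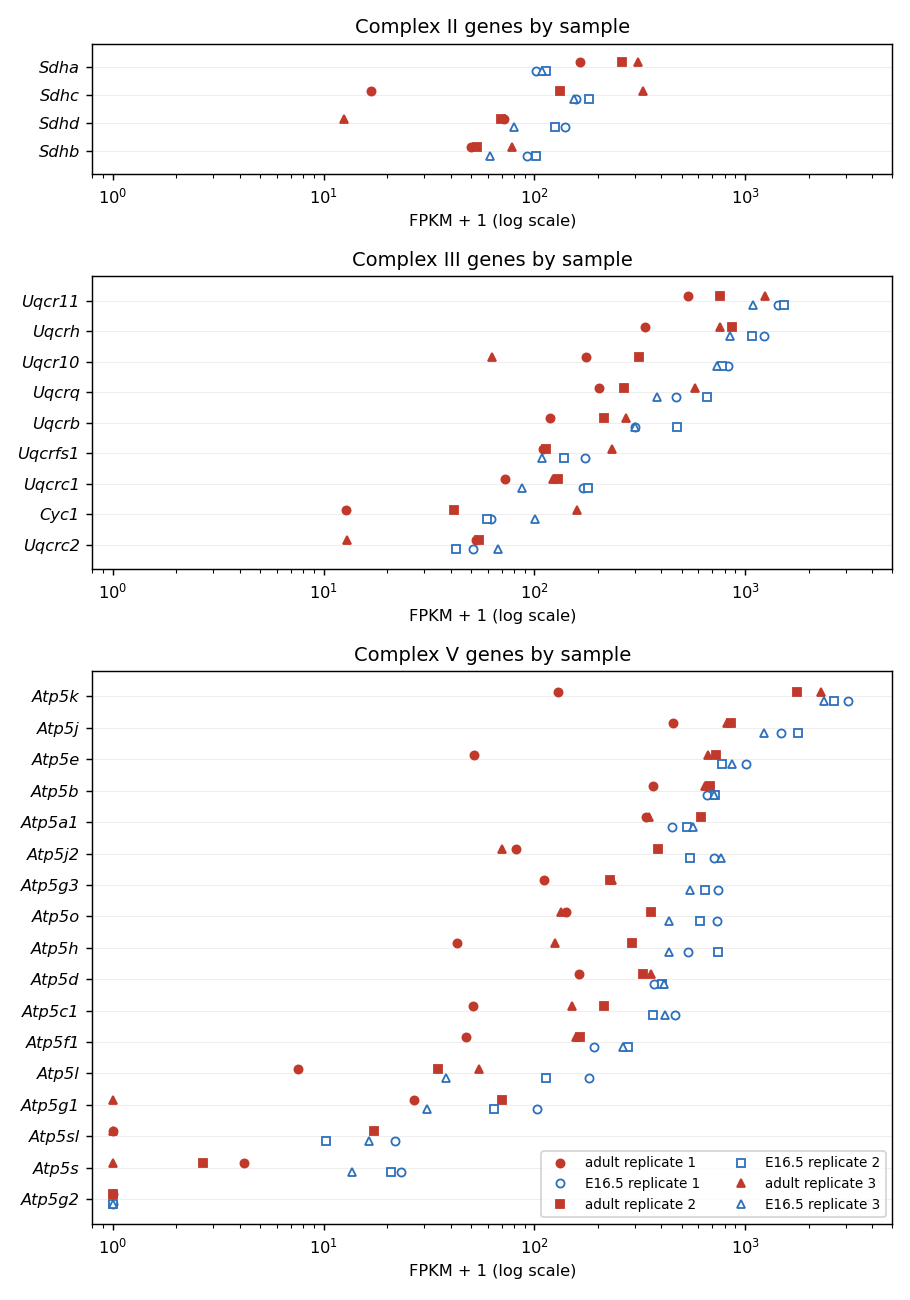
FPKM + 1 of the genes of complexes II, III and V on log axes, ordered by mean FPKM within each complex, with filled red symbols for the 3 adult and open blue symbols for the 3 E16.5 samples. Sdha is the one gene here with all adults above all E16.5 samples, and adult replicate 1 is far to the left in Atp5k and Atp5e.

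As shares of the summed FPKM of the tested genes, only complex II did not overlap between the ages. It took 4.37%, 3.22% and 4.71% in adults and 1.8%, 1.96% and 1.83% at E16.5. Every adult share was above every E16.5 share, while the summed FPKM of complex II overlapped, at 300, 512 and 723 in adults and 488, 518 and 400 at E16.5. The shares had means of 4.1% ± 0.784 (SD, n = 3) and 1.86% ± 0.0837 (SD, n = 3). The two-sided exact permutation p was 0.1, the smallest that 3 samples against 3 can give, and 0.4 after adjustment over the 4 complexes. The mean shares of adults and E16.5 were 37.9% and 40.5% for complex I, 21% and 17.6% for complex III, and 36.9% and 40% for complex V, with exact permutation p of 0.4, 0.3 and 0.8. These shares overlapped between the ages, and those of complexes I and V count Ndufa4, Atp5s and Atp5sl.

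**Figure D4:**
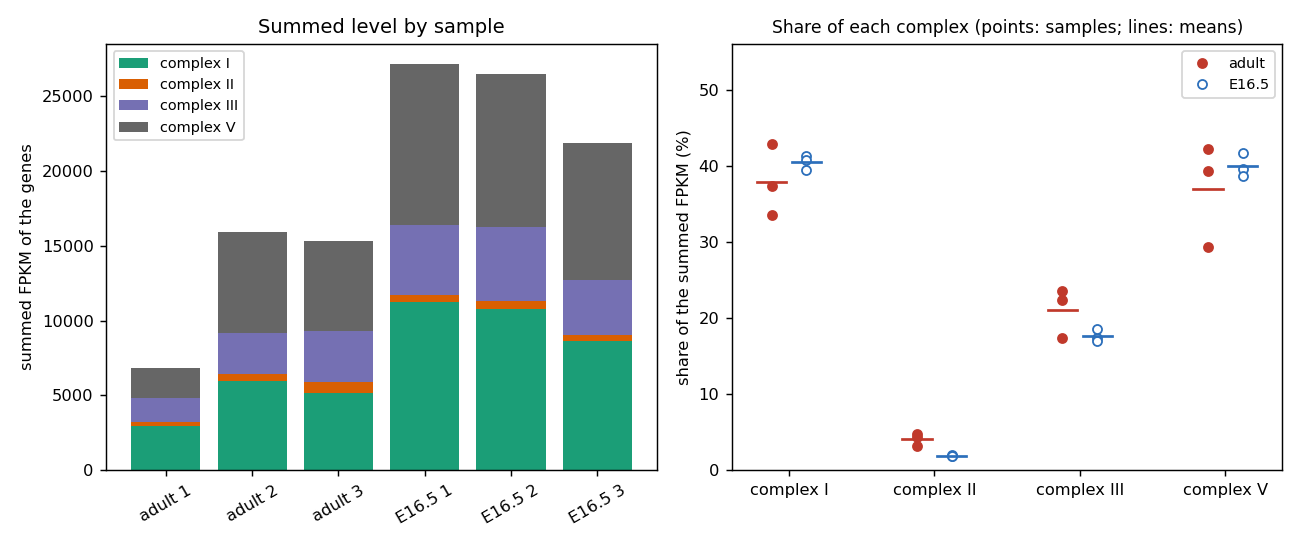
Left, summed FPKM of the genes of each complex in each sample. Right, share of each complex in the summed FPKM of the tested genes in percent, with a point per sample and a line at the mean of each age; the complex II shares are 3.22% to 4.71% in adults and 1.8% to 1.96% at E16.5.

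Transcript length moved with the change. Lengths were taken from GENCODE, and across the 64 tested genes Spearman's rho between length and change was 0.41, against 0.30 across 11525 tested genes with a length. Genes are not independent replicates, so these are descriptions. The 27 genes with transcripts under 750 bases had a median change of -1.85, and the 497 other genes of that length a median of -1.89. From 750 to 1000 bases the medians were -1.13 for 10 genes and -1.94 for 439 others, and from 1000 to 1500 bases both were -1.53. From 1500 to 2000 bases they were -0.66 for 11 genes and -1.18 for 1290 others, and from 2000 to 3000 bases 0.18 for 5 genes and -0.94 for 2572 others. In each class up to 3000 bases the median of these genes was at or above that of the other genes, while over all lengths it differed by -0.49. In the same classes, 4 of 27, 3 of 10, 1 of 10, 2 of 11 and 0 of 5 of these genes were called higher at E16.5. Of the other genes there, 17.5%, 22.6%, 14.5%, 11.2% and 8.79% were. Sdha and Ndufa10 have transcripts of 2900 and 2020 bases, and Uqcr10, Ndufb2 and Ndufb7 of 434, 455 and 623 bases. The part of length in the differences between and within complexes was not tested.

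**Figure D5:**
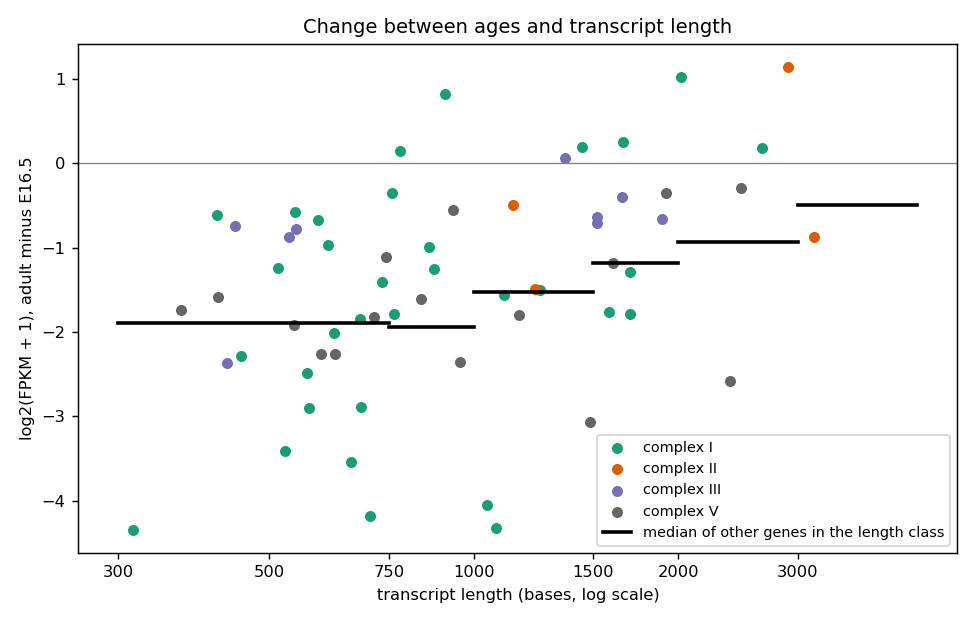
Change in log2(FPKM + 1), adult minus E16.5, against transcript length in bases on a log axis, with a point per gene reported here, coloured by complex and a black line at the median of all other tested genes in each length class. The black lines run from -1.89 below 750 bases to -0.50 above 3000 bases. Ndufb4 is left out because every adult sample was listed at 0.

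Letters shared with pseudogenes and neighbours touched many of these genes. No 50-base stretch was shared by 30 of the 67 genes, and 29 of these were tested, with a median change of -0.99. Of the 29, 7 were called higher at E16.5 (24.1%, against 8.83% of all genes tested). The 21 tested genes with over 10% of stretches shared had a median of -1.85, and 3 (14.3%) were called higher at E16.5. Promoters with the NRF1 core belonged to 11 tested genes with a median change of -1.49, and promoters without it to 40 tested genes with a median of -1.53. Of these, 18.2% and 17.5% were called higher at E16.5. With the ETS letters the median was -1.58 (13 genes, 7.69% called), and without them -1.45 (38 genes, 21.1%). With the YY1 letters it was -1.79 (9 genes, 11.1%), and without them -1.50 (42 genes, 19%).

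Other genes of the pathway were read from lists. Of 28 assembly factors, which build the complexes without staying in them, 4 were called higher at E16.5 and none in adult by limma, with a median change of -1.35. That is 14.3% against 8.83% of all genes tested, and over this list and the 4 lists below together the count of 4 fell to 0 with a pseudocount of 0.01 and to 1 among genes above 0 in every sample. They were Ndufaf6 and Tmem126b for complex I, Sdhaf1 for complex II and Uqcc3 for complex III. Uqcc3 was at 0.813, 1.8 and 0 FPKM in adults and at 55.1, 39.1 and 20.5 FPKM at E16.5 (change -4.41 ± 0.68 SE, limma adjusted p = 0.0121). Sdhaf1 was at 0, 3.54 and 0 FPKM in adults and at 25.8, 27.1 and 22 FPKM at E16.5 (limma adjusted p = 0.0238). Tmem126b was at 0, 0.514 and 0 FPKM in adults and Ndufaf6 at 0, 5.9 and 0 FPKM, with changes of -3.25 and -3.82. Sdhaf1, Tmem126b and Ndufaf6 were thus above 0 in adult replicate 2 only. An exact 0 can be a failed estimate, so their changes and calls are uncertain. Uqcc3 and Tmem126b averaged under 1 FPKM in adults and passed the filter only through E16.5, so their calls give no support to the list. Uqcc2, the most abundant of the list, did not pass (change -1.54, limma adjusted p = 0.125).

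In 18 tested genes of electron carriers and other electron entry, none was called by limma, and the median change was -0.29. An unadjusted p under 0.05 was found for 3, all higher at E16.5, where 25.9% of all genes tested had one. Etfb, of the electron transfer flavoprotein, was the most abundant, at 98.8, 239 and 112 FPKM in adults and at 363, 361 and 321 FPKM at E16.5 (limma adjusted p = 0.0561). Of 14 markers of mitochondrial mass none was called by limma, and the median was -0.50. An unadjusted p under 0.05 was found for 3 higher at E16.5 and 1 higher in adult, against 25.9% and 5.34% of all genes tested. The most abundant, the ADP/ATP carrier Slc25a4, was at 305, 359 and 120 FPKM in adults and at 550, 475 and 595 FPKM at E16.5. Of 4 further genes that the symbol rule misses, which include the ATP synthase inhibitor gene Atpif1, none was called by limma, and the median was -1.14. Of the 4, 2 had an unadjusted p under 0.05, both higher at E16.5, against 25.9% of all genes tested. The most abundant of the 4 genes was 2010107E04Rik, with a change of -1.01.

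Of 17 regulators of respiratory genes, none was called by limma, and the median change was -0.56. An unadjusted p under 0.05 was found for 1 higher at E16.5 and 1 higher in adult, where 25.9% and 5.34% of all genes tested had one. Ppargc1a, a coactivator of mitochondrial genes, was at 35.3, 31.2 and 14.6 FPKM in adults and at 15.1, 18.5 and 11.1 FPKM at E16.5, with overlap. Esrra, an estrogen-related receptor, was at 10.9, 30.2 and 21.5 FPKM in adults and at 8.13, 6.07 and 1.23 FPKM at E16.5. Every adult sample of Esrra was higher, but the change of 1.95 ± 0.72 SE did not pass (limma adjusted p = 0.117). The transcription factor genes Nrf1 and Gabpa and the mitochondrial DNA factor Tfam had changes of -1.41, -1.06 and -1.06, with adjusted p of 0.408, 0.191 and 0.339 by limma. Nfe2l2 was the most abundant of the list, with a change of -0.56.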

How the data were processed

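TRAP-seq samples of ChP, 3 adult and 3 at E16.5, were grouped by the age in their labels. By the methods and the submitters' processing notes, the authors aligned single-end reads to mm10 with STAR 2.4.0 and computed the deposited FPKM with Cuffquant of Cufflinks. The annotation used for it is not given in the sources used here. The authors' read counts were not analysed here. For the 11601 genes whose FPKM averaged above 1 across all 6 samples, log2(FPKM + 1) was compared between ages using limma 3.58.1 (R 4.3.3). The fit had an intensity trend, without covariates. Benjamini-Hochberg adjustment covered all 11601 genes, at 0.05. The script was tested on simulated data with normal values and the same SD at both ages. That test does not cover the wider spread of the adult samples or values at 0. A pseudocount of 1 understates the change of low genes.

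Coordinates, transcript lengths and 50-base stretches shared between genes were read from GENCODE for GRCm38, and promoters from RefSeq. Depth was estimated from the FPKM worth one read, using 2613 single-transcript protein-coding genes, and 52 of the 64 tested genes had an estimated 10 or more reads in every sample. Without molecular identifiers, reads are not independent molecules. Whether counting used strand is not given in the sources used here, so overlapping genes are uncertain.

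The text names every gene called, the 3 most abundant genes and the highest and lowest changes of each complex, all of complex II, the c subunit and Ndufa4 paralogs, genes listed at 0 or not tested, and from the other lists the called and most abundant genes and 5 regulators. Others, such as Atp5j2, were named after their values were seen. One gene is counted in the totals and not reported here. The genes and lists were chosen with earlier results of these data known. Alternatives covered the pseudocount, filter, scaling, variance model, sample weights, replicate block and leaving out each sample.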

Additional observations from a re-analysis of the deposited data

How the results depend on the processing

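The count of 10 genes called higher at E16.5 was 6 with a pseudocount of 0.1, 4 with 0.01, 3 without a filter, 3 with median-ratio scaling, 4 with quantile normalization and 2 with limma without trend, and it was 43 with the same sum of FPKM, 19 with the same sum without Mir6236 and 21 with sample weights. The share of all genes called, in the same order, was 7.44%, 6.57%, 5.43%, 5.68%, 4.34%, 8.18%, 27.9%, 11.5% and 11.2%, against 9.38%, 6.25%, 4.55%, 4.69%, 6.25%, 3.12%, 67.2%, 29.7% and 32.8% of these genes. With the replicate block the count was 9 (14.1% against 3.9%), of which 6 were among the 10. Across genes, same-numbered samples did not deviate together (r of 0.000895, 0.0439 and 0.0150). No pairing by number was seen in these values, and whether same-numbered samples were prepared together was not tested. Genes called higher in adult went from 0 to 1, namely Sdha, among genes above 0 in every sample and with sample weights. They went to 2, Sdha and Ndufa10, with median-ratio scaling and quantile normalization. Over all genes tested, in the same order, 271 of 6562 and 291, 346 and 569 of 11601 were called higher in adult. The 4 genes of the other lists called higher at E16.5 became 0 with a pseudocount of 0.01, 1 among genes above 0 in every sample, 26 with the same sum of FPKM, 9 without Mir6236 and 9 with sample weights, and 2 were called higher in adult with quantile normalization.

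Leaving out a sample was run under 2 filter rules. With the filter kept on all 6 samples, as planned, the count of 10 became 5, 17 and 15 when adult replicate 1, 2 or 3 was dropped. That was 7.81%, 26.6% and 23.4% of these genes, against 4.17%, 14.7% and 10.7% of all genes. The count was 1 (1.56%, against 4.12%, 3.01% and 3.51% of all genes) when E16.5 replicate 1, 2 or 3 was dropped. With the filter recomputed over the 5 samples left, a rule added after seeing the data and both sets of counts, the count became 6, 20 and 17, and 0, 0 and 1, in the same order. Without an adult replicate that was 9.38%, 31.2% and 26.6% of these genes, against 4.63%, 14.7% and 11.6% of all genes. Over all genes tested, the count higher at E16.5 without an E16.5 replicate was 478, 349 and 407 under the first rule and 25, 16 and 65 under the second, against 1024 with all samples; the cause was not tested. Over both rules, the count higher in adult ranged from 0 to 1 and that of the other lists from 0 to 10. The 1 was Sdha without adult replicate 1, where 131 of 11601 and 146 of 11690 genes tested were called higher in adult.

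With a pseudocount of 0.01 the median relative to all genes moved to 0.12 for all complexes, -0.05 for complex I and 0.73 for complex III, and with quantile normalization to -1.10 for complex I. Leaving out a sample, that of complex V ranged from -1.24 to -0.28. The change of Atp5a1 was 0.05 with median-ratio scaling and 0.19 with quantile normalization, and that of Uqcrfs1 -0.77 with the same sum of FPKM, -0.11 without Mir6236 and -0.13 with sample weights. Leaving out a sample, changes ranged from -1.61 to 0.05 for Ndufa4, from -1.81 to 0.34 for Sdhc and from -0.30 to 0.25 for Uqcrfs1, and the adult minus E16.5 share of complex V from -5.68 to 0.8 points. The shallower adult libraries limit what can be said of genes at or near 0 there.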
